A study of Pimephales promelas with 15 samples.

Results

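The comparison set larvae with the higher of the sequenced body burdens of hexabromocyclododecane (HBCD) against larvae of solvent-fed parents, across all transcripts that could be tested in the fathead minnow, Pimephales promelas. It used 10 of the 15 libraries of the series, 5 medium HBCD (MediumA to MediumE) and 5 solvent control (SolventA to SolventE), each made from a pool of 20 whole larvae at 7 days after fertilization. Deposited rows that shared an identifier were summed, which gave 14279 targets, and 13283 of them held enough counts to be tested. In the medium HBCD group larvae held a measured 1.77 mg/kg of HBCD. Their parents were given food with 36.4 mg/kg over a feeding of 49 days in all, which went on after the eggs were collected. Parents of the solvent controls were given food prepared with ethanol that had been evaporated, and HBCD in their larvae was below the limit of detection. Eggs of both groups were collected between day 25 and day 42 of the feeding, and all larvae were then reared in clean water, so the exposure reached them through the egg. The 5 low HBCD libraries (0.576 mg per kg in the larvae) entered the fit for its estimate of the spread, and larvae of the highest dose were not analysed here. No strain is given, and whether the pools of a group came from separate parents is not stated either. Each p-value thus sets a group difference against the spread between pools, which may be partly technical.

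HBCD is a brominated flame retardant that was added to polystyrene foams and textiles. It is fat-soluble and persistent, builds up in fish, and passes from the mother into the yolk, which feeds the larva until it begins to eat. In fish and mammals it is best known for acting on the thyroid axis and on the liver enzymes that process foreign compounds. The files give UniProt and RefSeq protein identifiers without gene names, and 0 of the 14279 identifiers matched the 64593 genes of the RefSeq annotation of assembly fPimPro1.hap1.1. Targets are therefore given by identifier with no function attached. For the same reason the tissue label, whole embryo bodies, was not checked against marker genes, and thyroid, estrogen, stress and xenobiotic genes could not be picked out. In pools of whole larvae, a lower count from fewer cells of a type and one from less RNA per cell cannot be told apart.

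Totals ran from 12.6 to 26.4 M estimated counts (1 M is 1e+06) in the medium HBCD libraries and from 13 to 58.4 M in the controls. In both groups replicates A, B and C were the shallower libraries, at 12.6 to 14.4 M, and replicates D and E the deeper ones, at 20.7 and 26.4 M for medium HBCD and 49.3 and 58.4 M for the controls. Counts of 0 followed the same split: among the 13283 targets, replicates A to C of the 2 groups held 205 to 242 targets at 0, medium HBCD replicates D and E 128 and 144, and solvent control replicates D and E 66 and 56. Thinning all libraries to the total of the shallowest left these numbers at 205 to 242, 137 and 148, and 74 and 61. Thinning acts on the deposited counts, after reads had been assigned to targets. Depth was examined by adding a depth class to the fit, by thinning, and by comparing libraries within a depth class. In these 2 groups the classes were replicates A to C against D and E. Within these 2 groups depth therefore cannot be told apart from anything else that sets D and E apart. In the low HBCD group, which also entered the fit, replicates A, C and D were the deeper libraries (20, 26.3 and 35.2 M). Replicates B and E were the shallower ones there (13.3 and 12.8 M).

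Across the 13283 targets the medium HBCD larvae differed little from the controls. The log2 fold changes, medium HBCD minus control, had a median of 0.00. The scaling centres the libraries on each other, so such a median was set in advance. A shift shared by most targets would not show in it. The middle 50% of the targets lay between -0.11 and 0.11, and the central 90% lay between -0.43 and 0.42. Mean log2 levels of the groups had a Pearson r of 0.982 over the 13283 targets, which are not independent and share the same libraries. After adjustment, 3 targets passed the edgeR quasi-likelihood test at 0.05, 2 higher and 1 lower, which is 0.0226% of those tested. The number turned on the tool and on single libraries: DESeq2 called 104 targets (43 higher, 61 lower), limma-voom 12 (8 higher, 4 lower), and edgeR on the 10 libraries alone 5 (0 higher, 5 lower). Without solvent control replicate C edgeR called 0, with 767 targets at an unadjusted p under 0.05, without D or without the 2 deepest controls 1, and without A or B 6. At 0.10 it was 14 targets, or 0.105%, of which 4 were higher and 10 lower. Without adjustment, a p under 0.05 was reached by 835 targets (6.29%), 390 higher (2.94%) and 445 lower (3.35%), with median log2 fold changes of 0.37 and -0.37. A uniform p would place 664.2 targets there. The number was 677 without the 2 deepest controls, 658 without solvent control replicate D alone and 1022 without medium HBCD replicate E.

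**Figure D1:**
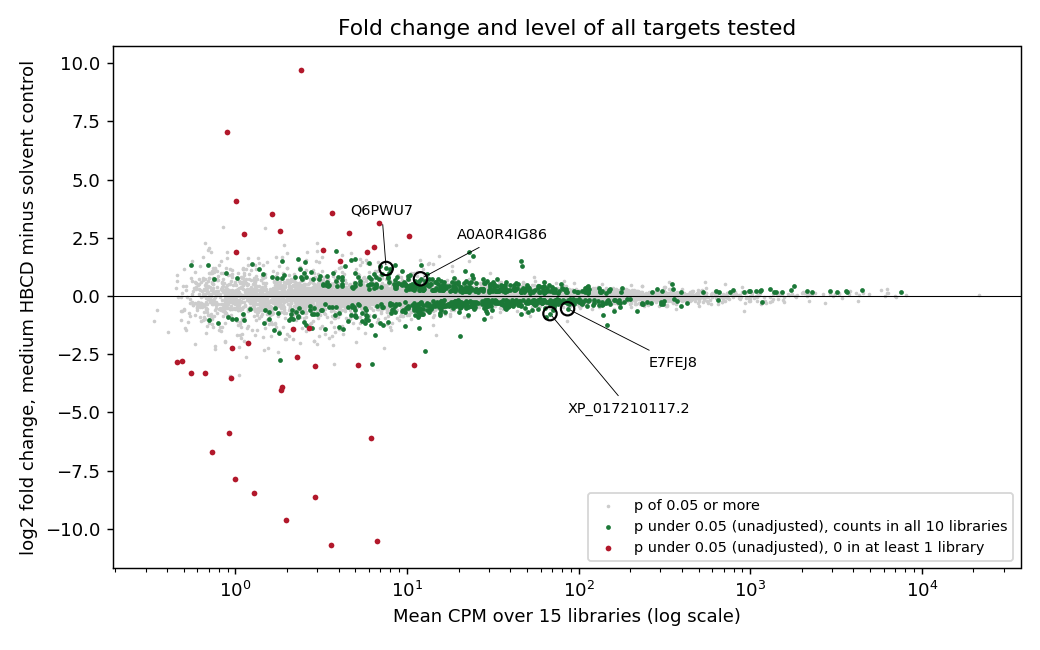
Log2 fold change of medium HBCD against solvent control (vertical axis) by mean CPM over the 15 libraries (horizontal axis, log scale), 1 point for each of the 13283 targets. Green and red points had an unadjusted p under 0.05, red ones with a count of 0 in at least 1 of the 10 libraries compared, and the 4 targets given by identifier are circled. The largest fold changes are red and lie at low mean CPM.

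The targets given by identifier were picked by smallest p on these same libraries. Their separation and their differences within depth classes are thus no further result, and their fold changes may be overstated. Q6PWU7 was the target of smallest p among those that rose. Levels are in CPM, the counts of a target per 1 M counts of its library, after TMM scaling, a normalization that centres the libraries on each other. Q6PWU7 measured 5.68, 4.83, 4.41, 4.99 and 6.17 CPM in solvent control replicates A to E, and 10.4, 9.32, 13.5, 10.5 and 15.7 CPM in medium HBCD replicates A to E. All 5 medium HBCD pools lay above all 5 controls, with replicates C and E the highest. The means were 5.22 ± 0.703 and 11.9 ± 2.64 CPM (SD, n = 5 each), a 2.27-fold rise or 1.18 in log2 units (SE 0.16, 95% interval 0.85 to 1.52, edgeR adjusted p = 0.01318). These levels rest on 57 to 359 estimated counts in a control and 121 to 319 in a medium HBCD library. Within the shallower libraries, 3 against 3, the log2 difference was 1.13, and within the deeper ones, 2 against 2, it was 1.19. The low HBCD pools lay at 4.79 to 6.23 CPM, over the range of the controls, and their log2 difference from the same controls was 0.10 (95% interval -0.24 to 0.43). The call of Q6PWU7 was lost without solvent control replicate C (log2 1.13, edgeR adjusted p = 0.05328) or D (1.17, adjusted p = 0.07709).

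A0A0R4IG86, the other target that rose, was less changed and more even. It measured 9.39, 9.89, 7.81, 8.96 and 8.13 CPM in solvent control replicates A to E, and 15.7, 14.3, 16.3, 13.8 and 13.7 CPM in medium HBCD replicates A to E. The groups did not overlap. Its means of 8.84 ± 0.862 and 14.8 ± 1.18 CPM (SD, n = 5 each) gave a 1.67-fold rise, or 0.74 in log2 units (SE 0.11, 95% interval 0.50 to 0.98, edgeR adjusted p = 0.04745). Shallower and deeper libraries taken apart gave log2 differences of 0.77 and 0.68. In the low HBCD pools it lay between 10.2 and 14 CPM, a log2 difference of 0.49 from the same controls (95% interval 0.24 to 0.73, edgeR adjusted p = 0.1915). This call was the least secure of the 3: with 1 library left out it remained only without solvent control replicate B, and the other 9 omissions gave log2 fold changes of 0.70 to 0.77 with edgeR adjusted p from 0.0511 to 0.1702.

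E7FEJ8 was the 1 target that fell. In the controls it measured 99.2, 111, 113, 103 and 104 CPM in replicates A to E, and in medium HBCD 74.1, 75.3, 70.6, 68.9 and 74.8 CPM. The medium HBCD pools were tightly grouped and all lay below the lowest control. The means were 106 ± 5.71 and 72.8 ± 2.83 CPM (SD, n = 5 each), so controls held 1.46 times the level of medium HBCD (log2 fold change -0.54, SE 0.07, 95% interval -0.69 to -0.40, edgeR adjusted p = 0.01178). The log2 difference was -0.55 in the shallower and -0.53 in the deeper libraries. Low HBCD pools spanned 72.2 to 88.9 CPM, also below the controls, with a log2 difference of -0.41 (95% interval -0.55 to -0.27, edgeR adjusted p = 0.04636). The low and medium HBCD comparisons share their controls. Without solvent control replicate C the call was lost (log2 -0.52, edgeR adjusted p = 0.05328), and it held without any other single library.

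E7FEJ8 was deposited on 3 rows, and 1 of them carried the fall. Row 1 held 93.3% of its control counts and went from 97.7 ± 6.36 to 64.7 ± 3.88 CPM (SD, n = 5 each), or -0.59 in log2 units (SE 0.08, edgeR adjusted p = 0.01353 over 14202 rows). Rows 2 and 3, at control means of 3.24 and 5.2 CPM, had log2 fold changes of 0.35 (SE 0.69) and -0.40 (SE 0.43), with ranges that overlapped between the groups.

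XP_017210117.2 had the second smallest p among the lower targets, and its summed count did not pass the adjusted test. It measured 90.7, 86.1, 81.9, 99.1 and 94.7 CPM in solvent control replicates A to E, against 50.2, 49.6, 52.3, 60.1 and 55.7 CPM in medium HBCD. Means were 90.5 ± 6.80 and 53.6 ± 4.36 CPM (SD, n = 5 each), a log2 difference of -0.76 (SE 0.13, 95% interval -1.02 to -0.49, edgeR adjusted p = 0.06238), and the groups did not overlap. The log2 difference was -0.76 in the shallower and -0.74 in the deeper libraries. Low HBCD pools were more scattered, at 44.8 to 78.3 CPM, and all lay below the controls (log2 difference -0.58, 95% interval -0.85 to -0.32, edgeR adjusted p = 0.1349).

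**Figure D2:**
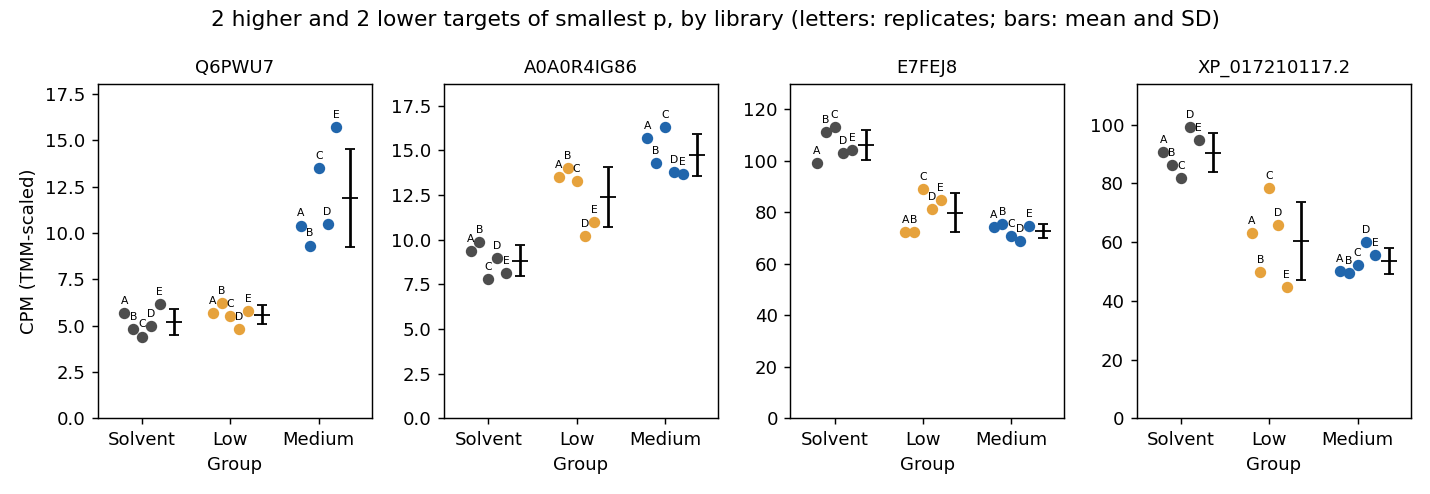
CPM of the 2 higher and 2 lower targets of smallest p in their direction (panels) in each library, by group, with replicate letters beside the points and the mean and SD of 5 libraries at the right of each group. The vertical axes start at 0. Medium HBCD pools do not overlap the controls in any of the 4 panels. The targets were picked by p on these same libraries, so this separation is no further result. The low HBCD pools lie with the controls for Q6PWU7, above them for A0A0R4IG86, and below them for E7FEJ8 and XP_017210117.2.

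The 8 deposited rows behind XP_017210117.2 differed among themselves far more than their sum. They were examined after the summed values had been seen. Row 2, the most abundant, held 48.6% of the control counts and went from 45.2 ± 2.96 to 34.4 ± 2.70 CPM (SD, n = 5 each), a log2 difference of -0.39 (SE 0.14, edgeR adjusted p = 0.5247). It did not pass, although its medium HBCD pools, at 31.9 to 38.5 CPM, all lay below its controls, at 41.9 to 48.9 CPM. Rows 5, 6 and 7 together stood for much of the rest, with 9.51%, 15.1% and 11.6% of the control counts, and each of the 3 passed the test over all rows.

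Row 6 measured 3.56, 10.6, 10.7, 16.6 and 16.1 CPM in solvent control replicates A to E and 0.707, 0.154, 0.161, 0.386 and 0.688 CPM in medium HBCD replicates A to E. Every medium HBCD pool was below 1 CPM, and the log2 fold change was -4.73 (SE 0.63, edgeR adjusted p = 0.01016). Row 5 measured 16.3, 10.4, 5.03, 8.81 and 7.89 CPM in the controls and 1.41, 0.308, 0.242, 1.43 and 1.67 CPM in medium HBCD, a log2 difference of -3.22 (SE 0.52, edgeR adjusted p = 0.03088). For row 5 the lowest control was replicate C and for row 6 it was replicate A, so the rows did not order the control pools in the same way. Row 7 went from 9.58 ± 2.70 CPM, with controls at 5.75 to 12.1, to 2.67 ± 0.309 CPM, with medium HBCD pools at 2.26 to 2.98 (SD, n = 5 each; log2 fold change -1.85, SE 0.22, edgeR adjusted p = 0.01002).

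Rows 1, 3, 4 and 8 of XP_017210117.2 did not pass, with log2 fold changes of 0.61 (SE 0.99), -0.46 (SE 0.55), 0.31 (SE 0.18) and -0.06 (SE 0.25). In the low HBCD pools rows 5, 6 and 7 were low as well, against the same controls. Row 5 lay at 0.486 to 1.37 CPM, row 6 at 0 to 0.328 CPM and row 7 at 2.77 to 4.86 CPM. Their log2 differences from the controls were -3.5, -6.1 and -1.39 (edgeR adjusted p = 0.03711, 0.004087 and 0.03711). For rows 5 and 6 these falls were larger than at medium HBCD, and the 2 doses were not tested against each other. Leaving out solvent control replicate D ended the medium HBCD calls of all 3 rows (log2 fold changes -3.25, -4.56 and -1.76, edgeR adjusted p = 0.0966, 0.05093 and 0.05093). Leaving out medium HBCD replicate D ended that of row 6 (-4.69, adjusted p = 0.06151), and row 5 kept its call in 2 of the 10 omissions, those of solvent control replicates B and C.

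**Figure D3:**
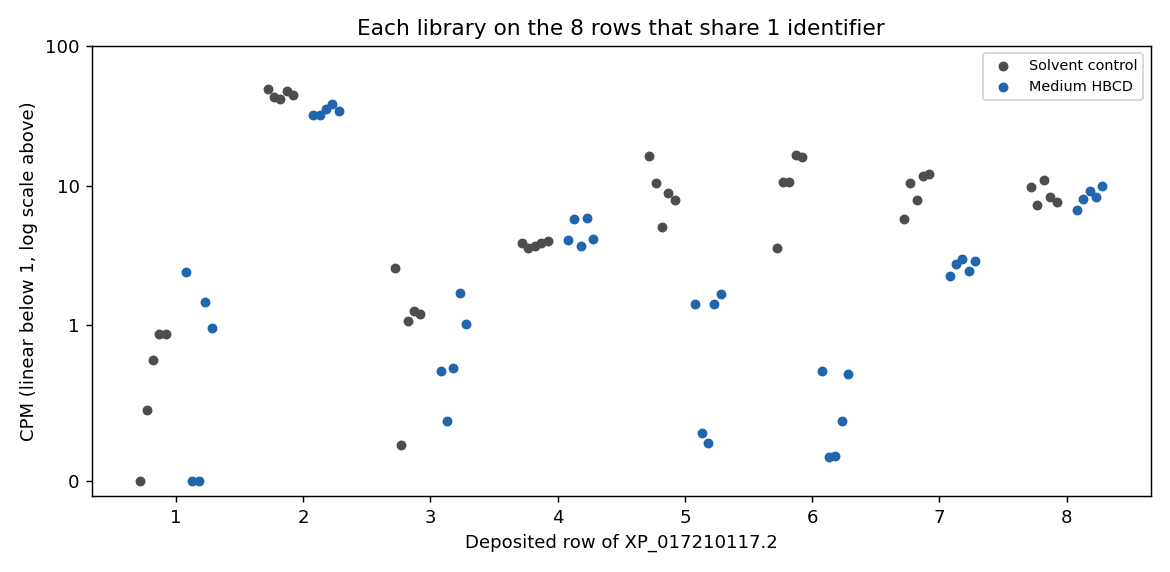
CPM of each solvent control (grey) and medium HBCD (blue) library on the 8 deposited rows that carry the identifier XP_017210117.2, with a vertical axis that is linear below 1 CPM and logarithmic above. In rows 2, 5, 6 and 7 the groups do not overlap, and in row 8 they do.

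Taking each deposited row as a target raised the number of calls to 16 of 14202 rows (0.113%), 8 higher and 8 lower. Of these, 9 came from identifiers on more than 1 row, 4 higher and 5 lower, although such rows made up 11.8% of the rows tested. The 9 rows belonged to 7 identifiers, and for 1 of the 9 the summed identifier was also called. An unadjusted p under 0.05 was reached by 12.8% of the rows of such identifiers and by 6.10% of the rows that had an identifier to themselves. An estimated count divides reads among similar sequences, so rows of 1 identifier can trade reads with each other and are uncertain one by one. After summing, an unadjusted p under 0.05 was reached by 9.06% of 762 targets on 2 or more rows. For the 12521 targets on 1 row it was 6.12%. The cause of these differences was not tested. The number of rows called was 1 without the 2 deepest controls, 0 without solvent control replicate D, where edgeR gave 781 rows an unadjusted p under 0.05 against 979 with all libraries, 2 without medium HBCD replicate D and 3 without medium HBCD replicate B. It was 6 without solvent control replicate E or medium HBCD replicate C, and 7 without solvent control replicate C or medium HBCD replicate A or E.

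Between an adjusted p of 0.05 and 0.10 lay 10 further targets besides XP_017210117.2, 2 higher and 8 lower, with edgeR adjusted p from 0.05664 to 0.09933. The 2 higher ones had log2 fold changes of 1.48 and 1.52, and the 8 lower ones ran from -6.09 to -0.39. Mean levels of the 10 spanned 2.53 to 132 CPM. In 9 of the 10 the 5 medium HBCD pools did not overlap the 5 controls. The exception, with a log2 fold change of -6.09, was the only one of the 10 with a count of 0 in any of the 10 libraries. The 10 were picked by p on these same libraries, so their separation is no further result. Over all targets tested, all 5 medium HBCD pools lay above the controls in 0.949% and below them in 1.16%.

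Complete separation of the pools was counted with no adjustment for the number of targets. Its number therefore cannot be set against that of the adjusted test, and the number expected with no group difference was not computed. All 5 medium HBCD pools lay above all 5 controls in 126 targets (0.949% of those tested) and below them in 154 (1.16%). Separation mostly came with small changes: over the 280 targets the log2 fold changes had a median size of 0.39, and 33 of them differed by more than 2-fold. Of the 280, 239 had an unadjusted p under 0.05. With the 2 deepest controls left out, a comparison of 5 pools with 3 in which separation is easier to reach, the number was 598, and after thinning it was 256.

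Fold changes above 2-fold were found in 295 targets (2.22%), 132 higher and 163 lower. Most of them, 216 or 73.2%, had a count of 0 in at least 1 of the 10 libraries, whereas 5.21% of all targets tested had one. With counts in all 10 libraries, 79 targets exceeded 2-fold, 41 higher and 38 lower, and 58 of these had an unadjusted p under 0.05. Of the 216 with a 0, 39 did. A count in all 5 pools of one group and in no pool of the other was rare among the 14279 identifiers: 1 was counted in every medium HBCD pool and in no control, and 0 the other way round. When 1 pool was allowed to break the pattern, 13 identifiers had a count in 4 or 5 medium HBCD pools and in at most 1 control, and 31 had one in 4 or 5 controls and in at most 1 medium HBCD pool. Solvent control replicates D and E were the deepest libraries. A count in some control but in no medium HBCD pool was seen for 142 identifiers and the reverse for 61, and after thinning for 140 and 64.

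The level of a target set how large a change could be seen. Targets were put in classes of mean CPM, which is not divided by transcript length. Under 1 CPM, 10.1% of 335 targets had a 95% interval that stayed inside a 2-fold change either way, between 4 and 16 CPM 78.0% of 3032 did, and between 64 and 256 CPM 98.2% of 2874 did. Over all targets the interval lay within 1.5-fold for 66.2% and within 1.25-fold for 29.9%, and its median half-width was 0.31 on the log2 scale. Changes over 2-fold became rarer with level, from 18.5% of the targets under 1 CPM to 2.64% between 4 and 16 CPM and 0 of the 535 targets above 256 CPM. Conversely, 91 of the 13283 targets had an interval that lay wholly beyond 1.25-fold and 33 had one wholly beyond 1.5-fold. These intervals are not adjusted for the number of targets, of which 3 passed the adjusted edgeR test. Targets with a count of 0 in some libraries are among those counted.

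Directions at an unadjusted p under 0.05 were also counted by class. Over all targets 2.94% were higher and 3.35% lower. Above 256 CPM, 31 of 535 targets were higher and 11 lower. Between 64 and 256 CPM it was 45 higher and 85 lower of 2874, and between 4 and 16 CPM 113 and 112 of 3032. The remaining classes had 5 higher and 13 lower of 335 (under 1 CPM), 41 and 52 of 1332 (1 to 4 CPM), and 155 and 172 of 5175 (16 to 64 CPM). The 2 upper classes kept these directions with DESeq2 size factors (32 and 11, 44 and 81), with upper quartile scaling (31 and 11, 43 and 91) and without the 2 deepest controls (21 and 7, 37 and 75). Those refits used the same pools, so the kept directions are no further result. Targets measured in the same pools are not independent, and the difference between the classes was not tested. Median log2 fold changes of the 2 classes were 0.015 and -0.012.

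**Figure D4:**
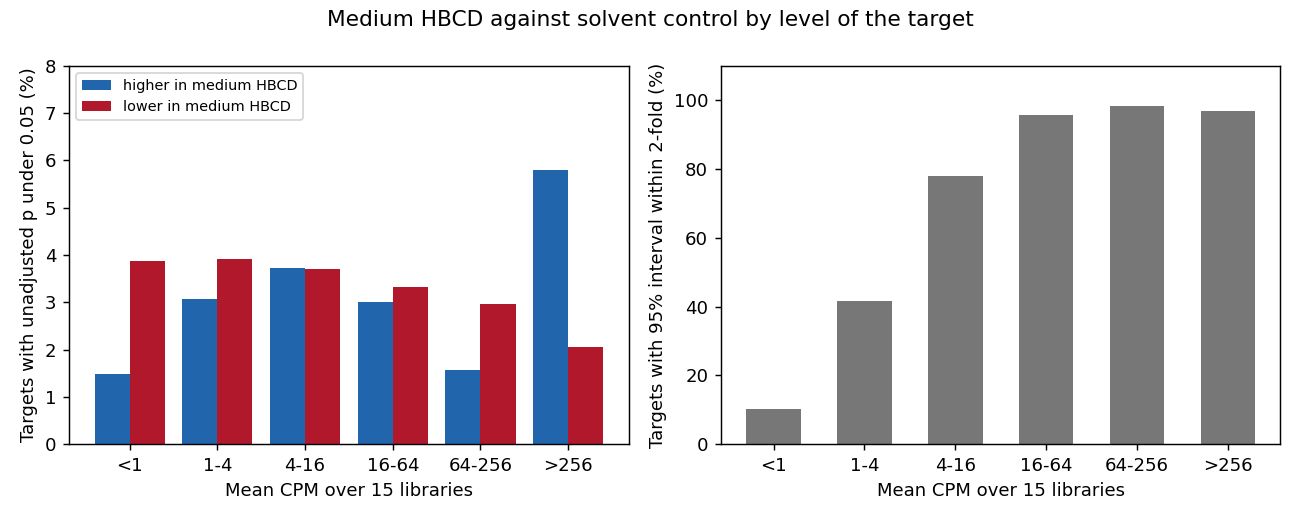
Left, percent of the targets in each class of mean CPM with an unadjusted p under 0.05, higher (blue) or lower (red) in medium HBCD. Right, percent whose 95% interval stayed inside a 2-fold change, which rises from 10.1% under 1 CPM to 98.2% between 64 and 256 CPM.

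Pools varied by a like amount within both groups, and which group varied more turned on the libraries used. The median SD of log2 CPM over the 13283 targets was 0.214 in medium HBCD and 0.198 in the controls, and 56.3% of the targets had the larger SD in medium HBCD. The control value was 0.154 without solvent control replicate B and 0.22 without the 2 deepest controls, below and above that of medium HBCD. Taking 2 pools at a time, the median size of the log2 difference was 0.123 to 0.285 within medium HBCD, 0.085 to 0.279 within the controls, and 0.167 to 0.342 for the 25 pairs of a medium HBCD pool with a control. The median over pairs was 0.248 within medium HBCD, 0.2095 within the controls and 0.222 between the groups. Each value is a median over all targets, so it cannot show changes in a small share of them. Replicates D and E were the closest pair in both groups, at 0.123 in medium HBCD and 0.085 in the controls. Medium HBCD replicates D and E were also nearest to the control mean, at 0.147 and 0.149, while replicates A, B and C lay at 0.210, 0.220 and 0.212. The controls showed the same order. Solvent control replicates D and E lay at 0.126 and 0.127 from the other controls, and A, B and C at 0.180, 0.244 and 0.156.

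The authors' deposited table for this comparison listed 105 targets, and all 105 mean normalized counts in it matched the summed rows within 1%. By size of the log2 fold change in the authors' deposited table, 69 were below 1 (31 higher, 38 lower), 21 between 1 and 5 (10 higher, 11 lower) and 15 above 5 (3 higher, 12 lower). With edgeR, 97 of the 105 were tested and 3 passed at 0.05. The median edgeR adjusted p was 0.2488 for the 69 (highest 0.6315) and 0.1813 for the 21 (highest 0.3845). For the 7 of the 15 that were tested it was 0.4721. The classes differed in how the counts were spread over pools. None of the 69 smaller changes in the authors' deposited table had a 0 in any of the 10 libraries, and in 53 of them the groups did not overlap. The list came from a test of these same counts, so this separation is no further result. Over all targets tested with edgeR, 0.949% lay wholly above the controls and 1.16% wholly below. All of the 15 largest changes in the authors' deposited table had at least one 0, and 0 of the 15 were scored as separated. For 14 of them this was fixed in advance, as 1 group was at 0 throughout and the other held a 0 too. The 8 that edgeR did not test were scored as not separated without a comparison.

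Among those 15, the lower group was at 0 in all 5 pools in 14 and had a count in 1 pool in the remaining one. The group with counts had them in 1 pool for 5 targets, in 2 pools for 1, in 3 pools for 3, in 4 pools for 5 and in 5 pools for 1. The authors' deposited table gives log2 fold changes of 5.97 to 24.35 in size for these targets. For the 14 with 1 group at 0 throughout, the counts themselves give no finite fold change. How the treatment of zeros entered the fitted values was not tested. In 14 of the 15 the low HBCD pools held a count. The filter on low counts left 8 of the 15 untested with edgeR, and the other 7 had edgeR adjusted p from 0.07798 to 0.5939. For the 4 targets named above, the authors' deposited table lists log2 fold changes of 1.18 for Q6PWU7, 0.74 for A0A0R4IG86, -0.54 for E7FEJ8 and -0.76 for XP_017210117.2, with adjusted p of 2.439e-08, 9.926e-07, 2.152e-11 and 1.451e-05.

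**Figure D5:**
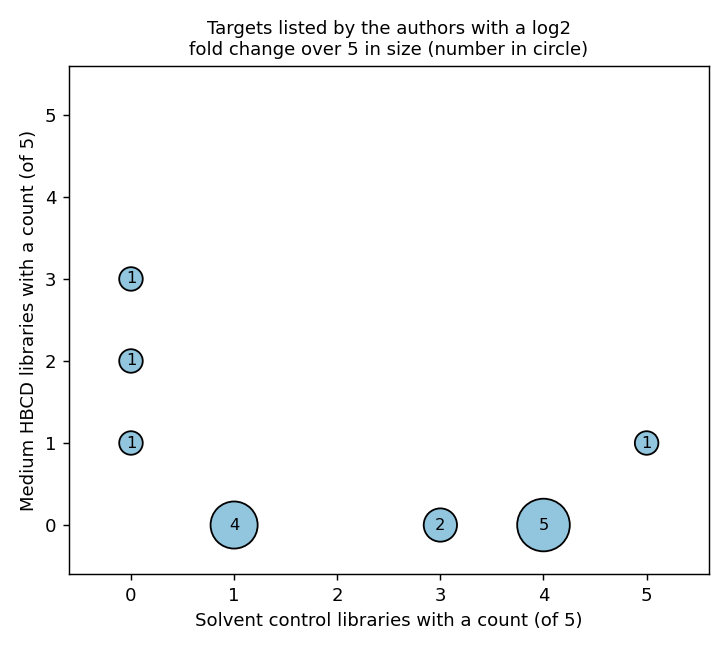
Number of solvent control (horizontal axis) and medium HBCD libraries (vertical axis) with a count, of 5 each, for the 15 targets with a log2 fold change over 5 in size in the authors' deposited table. Circle area and the number inside give the targets at each position: 4 were counted in 1 control alone, and 5 in 4 controls and in no medium HBCD pool.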

How the data were processed

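Trim Galore, kallisto and DESeq2 are named in the submitters' processing notes; of versions, reference and settings the sources used here say nothing. Per the labels' protocols, polyadenylated RNA was selected and directional libraries were made. The authors deposited estimated counts on 15551 rows for 15 libraries, not normalized, of which 37 to 42.8% in a library were whole within 1e-06. The authors' deposited table holds, per the file headers, a signal (the mean of the normalized counts), a log2 fold change with its error, a test score, and raw and adjusted p-values of the targets it lists.

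Estimated counts were summed per identifier (793 were on more than 1 row) and rounded. Changes were tested with edgeR 4.0.16 (R 4.3.3): TMM, filterByExpr, robust quasi-likelihood F test on all 15 libraries without covariates, medium HBCD minus control, Benjamini-Hochberg adjusted over 13283 targets at 0.05. The filter kept 99.98% of the counts. Errors and 95% intervals come from the F statistic. The test was tried on simulated data. Alternatives used DESeq2 1.42.0 and limma 3.58.1. Log2 levels used a prior count of 2. Depth classes were split at 17 M. Identifiers were named by rule: the 2 higher and 2 lower targets of smallest p, as no identifier had a gene symbol. Members, lists and tests were chosen with earlier results of these data known. The marker and pathway lists were not tested.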

Additional observations from a re-analysis of the deposited data

How the results depend on the processing

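Depth, classes by depth, row-level omissions, separation and 2-fold counts were alternatives chosen after seeing the data. The 3 calls became 104 with DESeq2, 12 with limma-voom, 16 with rows as deposited, 8 with the depth class as a term, 7 with upper quartile scaling, 5 with the stricter filter, 5 in the fit on the 10 libraries alone (0 higher, 5 lower), 1 without the 2 deepest controls and 0 with the replicate block. Leaving out 1 library gave 0 to 6 calls: 0 without solvent control replicate C (767 targets at an unadjusted p under 0.05), 1 without D, 6 without A or B. With 1 library fewer, rows called ranged from 0 to 18, and without the 2 deepest controls 1 row was called. Omissions leave fewer libraries by construction; for the other settings the cause was not tested.

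The count at an unadjusted p under 0.05 stayed within 1.5 times of 835 in all 22 alternatives (658 to 1022). Its excess over a uniform p, which would give 664.2 of 13283 targets, was not kept in all of them. The count was 658 of 13341 without solvent control replicate D and 677 of 13434 without the 2 deepest controls. The share of intervals within 2-fold, 84.7% with all libraries, was 79.8% with no filter, 85.9% with the stricter one, 86.6% with 10 libraries, 78.7% without the 2 deepest controls and 82.1 to 83.4% without 1 library. Targets over 2-fold numbered 697 with no filter and 474 without the 2 deepest controls, and 347 to 399 without 1 library; separated targets numbered 598 without the 2 deepest controls. The SD among pools was 0.154 to 0.211 in the controls and 0.203 to 0.221 in medium HBCD without 1 library.

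Log2 fold changes kept their sign throughout: Q6PWU7 1.07 to 1.26 (call lost in 5 of 22 alternatives), A0A0R4IG86 0.70 to 0.78 (13 of 22), E7FEJ8 -0.57 to -0.52 (3 of 21), and XP_017210117.2 -0.80 to -0.69, called in 6 of 21, among them the 10 libraries alone (adjusted p = 0.00592) and the depth class as a term (0.006946). The last 2 are spread over several rows, so the fit on rows as deposited gives no summed value for them. Both groups use replicate letters A to E, and with the letter as a replicate block 801 targets had an unadjusted p under 0.05 and edgeR adjusted p was 0.07511 for Q6PWU7 and E7FEJ8. Deviations of same-letter pools correlated between -0.134 and 0.069, with a median of 0.049 against -0.002 for pools of other letters. Of the 5 medium HBCD pools, 0 were closest to their own letter. With 5 same-letter pairs these values cannot say whether the letters pair the pools. Low targets had the widest intervals: under 1 CPM, 10.1% of intervals lay within 2-fold. Over all targets the share was 84.5% after thinning to the shallowest library.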

Other observations

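Identifiers were also taken by origin. An unadjusted p under 0.05 was reached by 6.29% of all 13283 targets. It was 6.04% of 7730 UniProt identifiers (212 higher, 255 lower) and 6.20% of 3546 RefSeq XP identifiers (93 higher, 127 lower). Among 2007 RefSeq NP identifiers it was 7.37% (85 higher, 63 lower). All 3 called targets were UniProt identifiers, the class that held 7730 of the 13283 targets tested. These shares are descriptions and were not tested against each other.

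Library totals, targets with a count before and after thinning, the share of the 10 most counted targets, the scaling factor and the CPM of the 4 named targets were searched for a pool far from the rest of its group. In 0 of 18 sets of 5 pools did the gap to the nearest pool exceed 0.71 of the range. The largest gap was 0.562. By chance about 1 set in 20 would exceed it, for sets chosen without regard to these libraries. The named targets were picked by p on these same libraries, which favours a small spread within a group. That rate therefore does not apply to their CPM. The search also cannot show pools that lie apart together. Solvent control totals gave a gap of 0.2, with replicates D and E at 49.3 and 58.4 M and A to C at 13 to 13.5 M.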
